A study of Homo sapiens with 27 samples.

Results

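Replication-dependent histone genes encode the bulk of the histones that package newly copied DNA, and 66 of them were described here out of 60619 genes in the count table. They were taken by name, as the protein-coding genes with a fitting GENCODE v44 symbol. The symbol begins H2AC, H2BC, H3C or H4C with a number, or is one of H1-1 to H1-6. The set was chosen with earlier results of these data known. The set holds 6 genes of the linker histone H1, 15 of H2A, 19 of H2B, 11 of H3 and 15 of H4. H2AC18, H2AC19, H3C2 and H3C3 fit the same names, but their GENCODE v44 identifiers had no row in the table and they were not analysed here.

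The study asked how invasive lobular breast carcinoma cells change when they adapt to life without estrogen, using the estrogen receptor-positive lines MM134 and SUM44. Long-term estrogen-deprived (LTED) variants had been raised independently by keeping each line for months in charcoal-stripped serum, giving 4 variants of MM134 (LTED-A, -B, -D and -E) and a pair from SUM44 (LTED-A and -B). Each variant is a separate derivation of 1 line, and its 3 libraries came from wells plated in triplicate. The comparison groups were MM134 parental cells, SUM44F parental cells, a subline of SUM44PE adapted to serum-containing medium that was the study's parental line for SUM44 LTED, and SUM44PE parental cells. All parental cells were deprived of hormone for 3 days before collection, so parental and LTED cells alike were without added estrogen when RNA was taken. No group kept in full serum was analysed here. Total RNA was sequenced, which matters here because an mRNA without a poly(A) tail is lost when libraries start from poly(A) selection.

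Most of these genes have no intron, lie in clusters and are transcribed when DNA is replicated in S phase. Instead of a poly(A) tail their mRNAs end in a conserved stem-loop that is bound by SLBP and cut with the help of the U7 small nuclear ribonucleoprotein, and transcription is driven in part by NPAT at the histone locus body. Each core histone is encoded by many near-copies, so that single genes can differ in level between cell types while the total supply of the protein is shared. A few of the genes, H1-2, H2AC6, H2BC5, H2BC12 and H2BC21 among them, are also known to give polyadenylated transcripts.

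Of the 66 genes, 53 lie on chromosome 6 in GENCODE v44 on hg38. The first group of 32 spans chr6:25723397-26285638, the second, of 5, chr6:27125897-27147562, and the third, of 16, chr6:27807479-27893891. On chromosome 1, 9 genes lie at chr1:149782689-149887965 in band 1q21 and 2 at chr1:228434777-228463104 in band 1q42. H4C16 on chromosome 12 and H2BC12L on chromosome 21 stand alone.

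The stem-loop that sets these mRNAs apart was read from the hg38 sequence within 100 bases after the stop codon, with the pattern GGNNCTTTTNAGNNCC on the transcribed strand. It was present in 62 of 66 genes (93.9%) and in 7 of 19858 other protein-coding genes (0.0353%), and 4 of those 7 were H2AC18, H2AC19, H3C2 and H3C3. The other 3 were H2AX, H3-4 and H3-7, histone genes too. H2BC10, H2BC12L, H3C6 and H4C13 held no match in this window. The 16-base forms below are shown because the base composition of the stem divided H4 from the other families; every letter is part of the element.
H3C11, the form of 36 genes in the H1, H2A, H2B and H3 families: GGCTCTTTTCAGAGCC
H2BC4, the form of 9 genes in the H1, H2A, H2B and H3 families: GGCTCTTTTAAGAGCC
H4C11, the form of 10 H4 genes: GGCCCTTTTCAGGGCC
H4C9, the form of H4C9, H4C12, H4C14 and H4C15: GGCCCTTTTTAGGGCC
H2AC11, H2AC15 and H2AC20 each carried a form of their own.

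Promoters of 60 of the 66 genes were found among the RefSeq promoter sequences on hg38, each covering 250 bases before and 50 after the start. The TATA box (TATAAA, either strand) was found in 39 of 60 (65.0%) against 11.5% of 35116 promoters, and the CCAAT box (CCAAT, either strand) in 50 of 60 (83.3%) against 34.6%. The octamer ATTTGCAT, a binding motif of POU2F1, was found in 26 of 60 (43.3%) against 1.77%, in 11 of 14 H2A and 14 of 18 H2B promoters but in 1 of 9 H3 promoters and in no H1 or H4 promoter. CCAAT was in every H1, H2A, H2B and H3 promoter matched and in 3 of 13 H4 promoters. These are matches of letters, not measured binding. The stretches below are printed because their genes differed most between the cell lines or lie in a cluster with ones that did. They are given 5′ to 3′ on the strand named, in lower case with the TATA box, the CCAAT box (in either direction) and the octamer in capitals. Levels are in CPM, counts scaled to a common library total with TMM factors. The first is the whole interval between the H2AC25 and H2BC26 genes, which stood at 16.9 CPM or more in every MM134 library and at 3.78 CPM or less in every SUM44 library, and it holds 3 CCAAT matches and neither other motif.
between H2AC25 and H2BC26, chr1:228457874-228458102, plus strand: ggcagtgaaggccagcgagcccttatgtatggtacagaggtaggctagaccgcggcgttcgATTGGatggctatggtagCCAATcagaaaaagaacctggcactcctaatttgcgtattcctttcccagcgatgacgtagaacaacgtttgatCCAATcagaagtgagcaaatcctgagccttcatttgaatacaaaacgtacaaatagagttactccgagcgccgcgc
upstream of H2BC18, chr1:149812371-149812490, minus strand: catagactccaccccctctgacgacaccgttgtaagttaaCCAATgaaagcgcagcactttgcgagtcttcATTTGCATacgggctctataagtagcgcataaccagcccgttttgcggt
upstream of H2BC21, chr1:149886683-149886802, minus strand: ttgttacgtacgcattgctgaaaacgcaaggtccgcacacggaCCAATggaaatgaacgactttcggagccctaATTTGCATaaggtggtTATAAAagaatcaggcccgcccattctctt
upstream of H3C10, chr6:27809931-27810050, plus strand: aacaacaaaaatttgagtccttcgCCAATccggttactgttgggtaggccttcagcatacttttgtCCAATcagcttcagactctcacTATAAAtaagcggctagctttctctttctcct
H2BC18 was near absent in MM134 while H2BC21, in the same 1q21 cluster, was high in both lines. Both upstream stretches hold CCAAT and the octamer, and only that of H2BC21 holds a TATA box match. H3C10 lies in the same chromosome 6 group as H3C11 and was high in both lines.

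Libraries held 28583554 to 134882175 estimated counts, with a median of 44018412, and the 66 genes took 0.524% to 1.35% of them. In SUM44 LTED-A, the difference between replicates 2 and 3 was smaller than sampling noise (chi-square per degree of freedom 0.312, against 2.35 to 58.3 for the 26 other pairs of replicates), and they were counted as 1 sample, so that variant has n = 2. All other groups have n = 3 wells, and p-values measure the spread between wells. Luminal markers, ESR1, GATA3, FOXA1 and keratins among them, summed to 4375 CPM or more in every library. In SUM44F, the summed level of 10 markers of other cell types ran from 34.9 to 177 CPM against 8.14 to 32.5 CPM elsewhere, with COL1A1 at up to 85.8 CPM, in replicate 1, while CD3E and CD79A stayed at or below 0.152 CPM. SUM44F replicate 3 had the lowest share of counts from histone genes, 0.524%, against 0.634% and 0.696% in the other two. The summed levels and the counts of histone genes that rest on SUM44F are therefore also given without replicate 1 and without replicate 3, and the part of these 2 libraries in the results was not tested beyond that. In bulk RNA, fewer cells in S phase and less histone mRNA per cell cannot be told apart.

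The summed level of the 66 genes, in CPM, separated the lines before any adaptation. MM134 parental libraries held 9294, 10437 and 11189 CPM, and SUM44F libraries 6714, 6096 and 4449 CPM. The groups did not overlap. SUM44PE libraries held 6066, 6468 and 6139 CPM, within the range of SUM44F.

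In the adapted cells this sum, with TMM scaling, lay above SUM44F in both SUM44 variants. Among the MM134 variants it lay below parental cells only in LTED-A. SUM44 LTED-A held 8461 and 10291 CPM and SUM44 LTED-B 13182, 13773 and 14378 CPM, 1.63 and 2.39 times the SUM44F mean (1.46 and 2.12 times with library totals as the only scaling). The ratios were 1.78 for LTED-A and 2.61 for LTED-B without SUM44F replicate 1, and 1.46 and 2.15 without SUM44F replicate 3. SUM44 LTED-B libraries lay above those of every other group. In MM134, LTED-A held 7570, 7625 and 8074 CPM, below all parental libraries and 0.753 times their mean. LTED-B (9805 to 10002 CPM), LTED-D (9618 to 9971 CPM) and LTED-E (10769 to 11127 CPM) all lay within the parental range. For LTED-E the ratio to parental cells was 1.06 with TMM but 0.970 with library totals alone. No p is given for these sums.

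**Figure D1:**
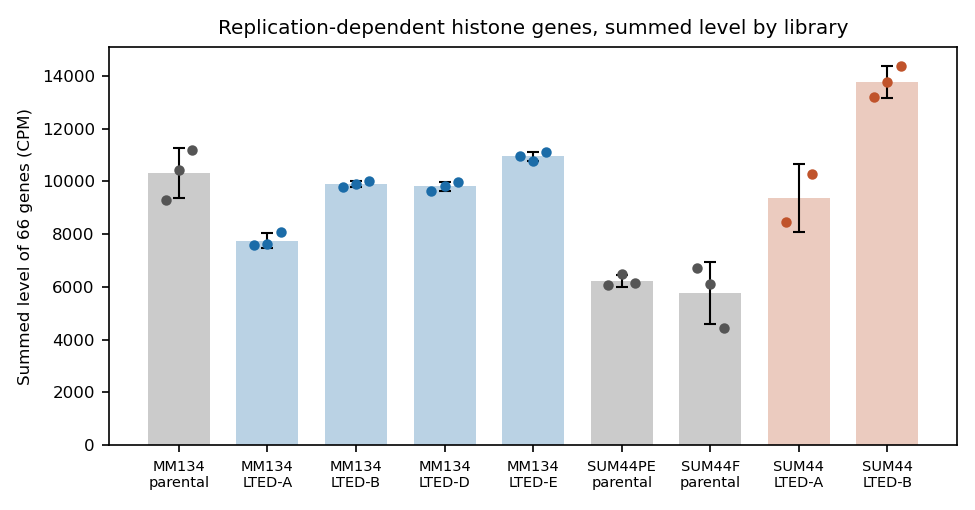
Summed level of the 66 replication-dependent histone genes (vertical axis, CPM) in each library by group. Points are libraries, bars are means and whiskers 1 SD (n = 3, SUM44 LTED-A n = 2). SUM44 LTED-B, at 13182 to 14378 CPM, stands above every other group and MM134 LTED-A, at 7570 to 8074 CPM, below the other MM134 groups.

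The share of each family in the sum moved by a few percentage points at most. H1 took 17.5% ± 0.939 (SD, n = 3) of the histone counts in MM134 parental cells and 15.3% ± 0.149 in MM134 LTED-A, 19.7% ± 0.915 in SUM44F and 20.1% ± 0.267 in SUM44 LTED-B. H2B was the largest family in every group, between 26.57% and 28.5% by group mean. H3 took 12.6% ± 0.286 in SUM44F and 14.9% ± 0.107 in SUM44 LTED-B.

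Single genes spanned a wide range of level. Per kilobase of canonical transcript and averaged over the 9 groups, the top 2 genes of each family were H4C11 (1187 CPM per kb), H4C14 (783), H2BC5 (707), H1-2 (693), H1-4 (591), H2BC4 (559), H3C8 (520), H2AC11 (477), H3C7 (469) and H2AC17 (398). The ranks of H4C14, H2BC5 and H2BC4 depended on the length used. With the union of exons as length, H4C14 stood at 165, below H4C5 (581). H2BC5 (399) and H2BC4 (89.2) then stood below H2BC9 (542). At the other end, H2AC1 and H4C12 had at most 3 counts in every library and were below detection. H1-1, H1-6, H2BC1, H4C6, H4C7 and H4C13 had means under 1 CPM per kb in every group, and of these H1-6 is a testis-specific linker histone. In all, 7 genes passed no filter on low counts and were in no comparison. Because the genes are near-copies, reads cannot always be placed: in 32 of 66 genes over 90% of the 31-base words of the transcript occur in no other gene, but in 11 genes under 20% do. H4C14 and H4C15 have identical canonical transcripts of 396 bases within gene models of 1878 bases, and H3C14 and H3C15 share 488 such words and had the same counts to 3 digits in every library. How reads were divided within either pair cannot be settled from these counts.

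SUM44 LTED-B showed the widest change. A gene was called differentially expressed (DE) with a fold change above 1.5 and an adjusted p below 0.001 in edgeR's quasi-likelihood test. Of 58 histone genes tested against SUM44F, 48 rose and 3 fell, where 8.69% of all genes tested rose and 8.57% fell. The median log2 fold change was 1.19, against -0.09 over all genes tested. By family, 4 of 5 H1 genes, 11 of 13 H2A, 16 of 18 H2B, 9 of 11 H3 and 8 of 11 H4 genes rose. The count was 50 without SUM44F replicate 1 and 50 without replicate 3, and fell to 38 at the lowest when any library was left out.

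The largest rises in SUM44 LTED-B were in H3 genes. H3C14 and H3C15, 2 near-identical genes of the 1q21 cluster, each held 131, 117 and 82.2 CPM in SUM44F and 369, 394 and 423 CPM in LTED-B. Their rise was 1.85 ± 0.16 on the log2 scale (SE, adjusted p = 5.01e-06). H3C12, at the far end of the third chromosome 6 group and overlapping H2AC17, held 31.5, 27.2 and 18.4 CPM in SUM44F and 84.2, 89.1 and 88.3 CPM in LTED-B (1.77 ± 0.16, adjusted p = 9.32e-06). No library of LTED-B came near those of SUM44F for these genes. Of the 2 highest genes of each family, H4C14 rose by 1.63, H3C8 by 1.54, H1-4 by 1.39, H1-2 by 1.36, H3C7 by 1.36, H2BC4 by 1.28, H4C11 by 1.18, H2AC17 by 1.16, H2AC11 by 1.13 and H2BC5 by 1.07 on the log2 scale, and all 10 were DE. The call of H4C11 was lost when any of 5 libraries was left out (SUM44F replicate 2, LTED-A replicate 1 or any of LTED-B), with log2 fold changes of 1.17 to 1.24.

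The rise was spread over the chromosome 6 groups and 1q21. The median log2 fold change was 1.17 over 27 genes of the first chromosome 6 group, 1.14 over 5 of the second, 1.19 over 14 of the third and 1.54 over 9 of 1q21. Other genes within 5000000 bases had medians of -0.40, -0.26, -0.26 and -0.10. The windows of the chromosome 6 groups overlap, so their medians share genes. H4C16, alone on chromosome 12, rose by 1.31 ± 0.13 (adjusted p = 1.59e-05), while other genes around it had a median of 0.03. H2BC26, the only gene tested at 1q42, stood at -1.58 and H2BC12L on chromosome 21 at 0.94, neither of them DE. The difference between loci was not tested.

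Of 7 genes not called in SUM44 LTED-B, H1-6 was at 0.223 to 0.544 CPM in these groups, and H2AC15, H2BC26 and H4C8 had log2 fold changes of 0.61, -1.58 and 1.04. H2AC6 held 168, 165 and 124 CPM in SUM44F and 180, 192 and 193 CPM in LTED-B (0.30 ± 0.11, adjusted p = 0.0492). H3C6 held 14, 12.8 and 9.87 CPM in SUM44F and 10.6, 10.6 and 11 CPM in LTED-B (-0.19 ± 0.12, adjusted p = 0.234). The H3C6 groups overlapped, and all LTED-B libraries lay just above SUM44F for H2AC6. H2AC6 is one of the 5 genes known to give polyadenylated transcripts, and H3C6 is one of the 4 without a stem-loop match, as is H2BC12L (0.94 ± 0.17, adjusted p = 0.00115). The other polyadenylated members did rise, H1-2 and H2BC5 as above, H2BC12 by 1.14 and H2BC21 by 1.54, and so did H2BC10, which lacks the stem-loop match. Without the 5 polyadenylated members the summed level was 2.42 times that of SUM44F.

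**Figure D2:**
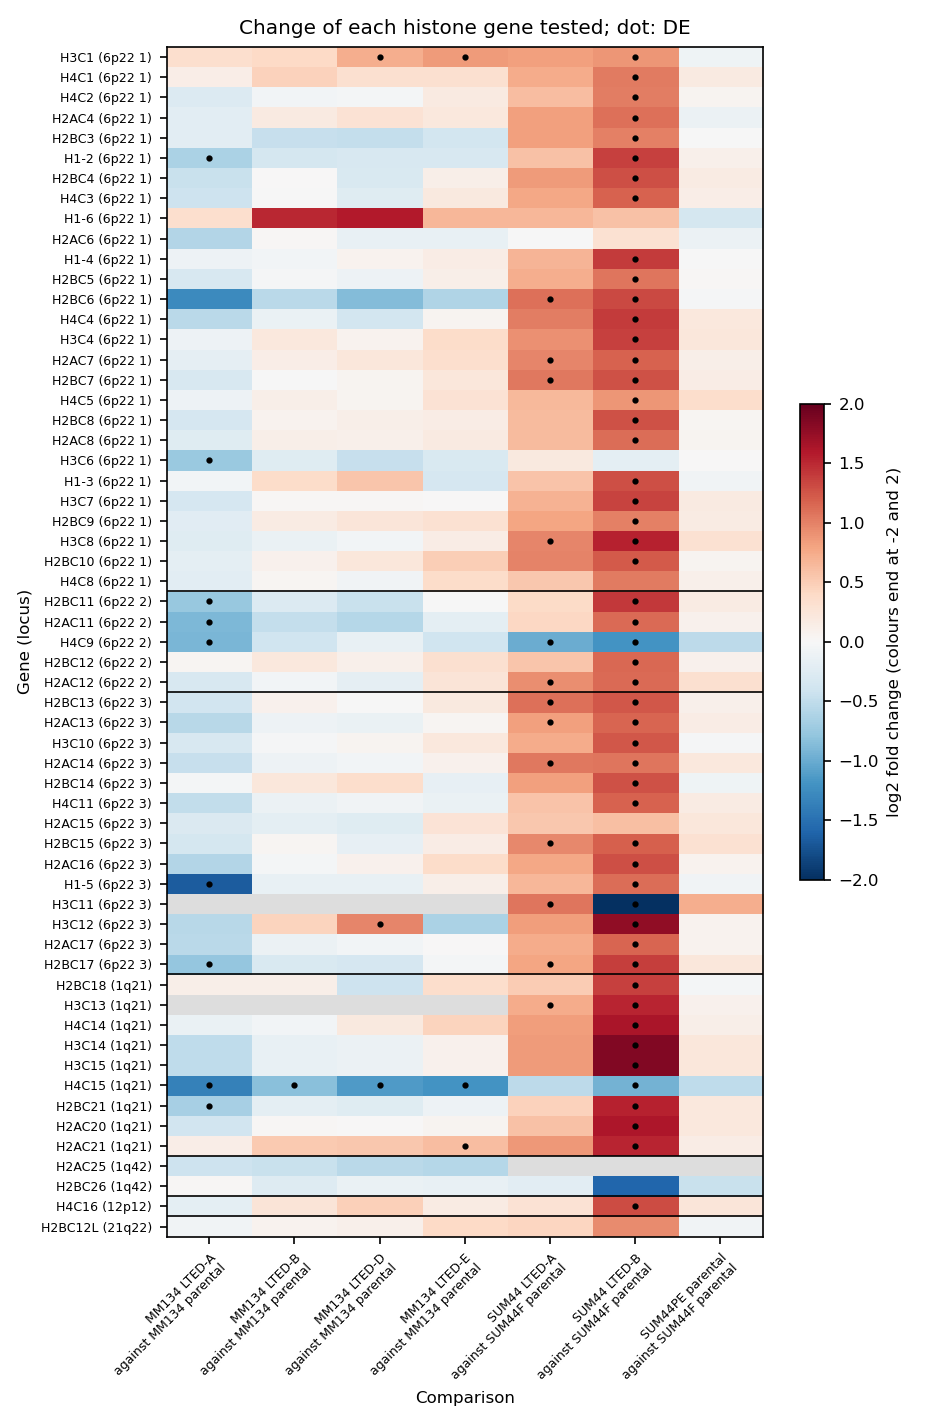
Log2 fold change (colour) of each histone gene tested, in rows by chromosome position, in 7 comparisons (columns), with a black dot where the gene was DE and grey where it was not tested. The SUM44 LTED-B column has 48 rises and 3 falls, and the SUM44PE column has no call.

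Of the 3 genes that fell in SUM44 LTED-B, H3C11 fell furthest. H3C11 (ENSG00000275379, chr6:27871845-27872346, minus strand) encodes the same kind of H3 protein as its neighbours, and 96.8% of its 31-base words are its own. It held 15.2, 14.9 and 9.77 CPM in SUM44F, 21.9, 21.8 and 22.8 CPM in SUM44PE, 25.4 and 30.5 CPM in SUM44 LTED-A, and 0.482, 0.395 and 0.448 CPM in SUM44 LTED-B. LTED-A libraries were thus all above the parental ones and LTED-B libraries all far below. The change was 1.08 ± 0.17 in LTED-A (adjusted p = 6.74e-04) and -4.91 ± 0.21 in LTED-B (adjusted p = 3.97e-08), while H1-5 and H2AC16 on one side and H2AC17 on the other each rose in LTED-B, by 1.12, 1.29 and 1.16. The LTED-A call was lost when any of 6 libraries was left out, with values of 0.94 to 1.24, and the LTED-B fall was not.

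H4C9 fell in both SUM44 variants. This H4 gene (ENSG00000276180, chr6:27139282-27139678, plus strand) held 10.3, 10.2 and 9.86 CPM in SUM44F, 4.94 and 5.26 CPM in LTED-A and 4.52, 4.40 and 4.32 CPM in LTED-B, with no overlap. The changes were -0.99 ± 0.11 (adjusted p = 5.28e-05) and -1.20 ± 0.10 (adjusted p = 4.26e-06). H4C15 went from 16.7, 22.4 and 19.8 CPM to 9.03, 11.3 and 10.2 CPM in LTED-B (-0.95 ± 0.13, adjusted p = 2.14e-04). Its canonical transcript has the same letters as that of H4C14, which held 241, 223 and 152 CPM in SUM44F and 620, 641 and 649 CPM in LTED-B, so the fall of H4C15 is uncertain.

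SUM44 LTED-A moved in the same direction as LTED-B, by less. Of 58 genes tested, 54 had a positive log2 fold change, 12 rose and 1 fell, against 6.39% and 7.28% of all genes tested, and the median was 0.74 against -0.06. The 12 were H2AC7, H2AC12, H2AC13, H2AC14, H2BC6, H2BC7, H2BC13, H2BC15, H2BC17, H3C8, H3C11 and H3C13, and no H1 or H4 gene rose. All but H3C11 also rose in LTED-B. This count rested on single libraries and on the tool. It was 24 without SUM44F replicate 1, 18 without SUM44F replicate 3, 2 without SUM44F replicate 2, 1 and 0 without LTED-A replicates 1 and 2, 4 or 5 without one of the LTED-B libraries, and 42 with DESeq2.

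Of the genes that rose furthest in LTED-A, H2BC13 held 63.2, 58.7 and 41.2 CPM in SUM44F and 106 and 127 CPM in LTED-A (1.10 ± 0.15, adjusted p = 2.54e-04). H2BC6 held 83.0, 75.8 and 53.1 CPM in SUM44F and 135.2 and 166 CPM in LTED-A (1.10 ± 0.16, adjusted p = 3.34e-04). Neither gene overlapped between the groups. Of the 2 highest genes of each family, H3C8 rose by 0.98, and the others had log2 fold changes of 0.42 (H2AC11) to 0.86 (H2BC4) that did not pass both thresholds.

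The SUM44 variants were compared with each other, a contrast chosen after their values were seen. LTED-B exceeded LTED-A in 52 of 58 genes, by a median of 0.44 on the log2 scale, but only 4 genes were DE higher and 1 lower, against 3.86% and 3.56% of all genes tested. H2BC21 held 191 and 232 CPM in LTED-A and 419, 442 and 481 CPM in LTED-B (1.08 ± 0.14, adjusted p = 2.14e-04). H2AC20, its divergent neighbour across the H2BC21 upstream stretch printed above, held 142 and 185 CPM in LTED-A and 316, 327 and 363 CPM in LTED-B (1.03 ± 0.16, adjusted p = 8.20e-04). Both sets of libraries were apart for both genes, and H4C16 (1.02 ± 0.15) and H3C13 (0.79 ± 0.12) were the other 2. H3C11 was the gene that was lower (-5.98 ± 0.22, adjusted p = 5.32e-08). The count of 4 went to 12 without SUM44F replicate 3, 9 without SUM44F replicate 1, 1 without SUM44F replicate 2 or LTED-A replicate 2, and 0 without LTED-A replicate 1 or any one LTED-B library.

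In MM134 LTED-A most histone genes were lower than in parental cells, and few passed the test. Of 57 genes tested against MM134 parental cells, none rose and 9 (15.8%) fell, against 10.5% and 9.82% of all genes tested, and 50 of 57 had a negative log2 fold change with a median of -0.32. The number that rose was 0 under DESeq2 too, and 45 genes had an unadjusted p below 0.05 in edgeR. The share of all genes tested below that p was not computed, so this count has no background beside it. Without MM134 parental replicate 1 the number that fell was 16. The genes that fell were H1-2, H1-5, H2AC11, H2BC11, H2BC17, H2BC21, H3C6, H4C9 and H4C15. In the second group on chromosome 6, 3 of 5 genes fell.

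H1-5 stood out among them. H1-5 (ENSG00000184357, chr6:27866792-27867588, minus strand) encodes a linker histone that binds DNA between nucleosomes, and 98.4% of its 31-base words are its own. Parental MM134 libraries held 501, 522 and 529 CPM of it, and LTED-A 159, 163 and 170 CPM. LTED-B held 449, 461 and 490 CPM, LTED-D 460, 465 and 460 CPM, and LTED-E 570, 551 and 555 CPM. LTED-A was therefore apart from every other MM134 library. The change was -1.67 ± 0.03 against parental cells (adjusted p = 3.46e-18), and -0.15, -0.15 and 0.12 in LTED-B, LTED-D and LTED-E. Other linker histone genes moved less in LTED-A, with H1-2 at -0.63, H1-4 at -0.10 and H1-3 at -0.05, of which H1-2 was DE. H2AC16, on the other strand beside H1-5, held 137, 159 and 164 CPM in parental cells and 99.3, 100 and 110 CPM in LTED-A (-0.58 ± 0.05, adjusted p = 1.19e-08, below the fold threshold).

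**Figure D3:**
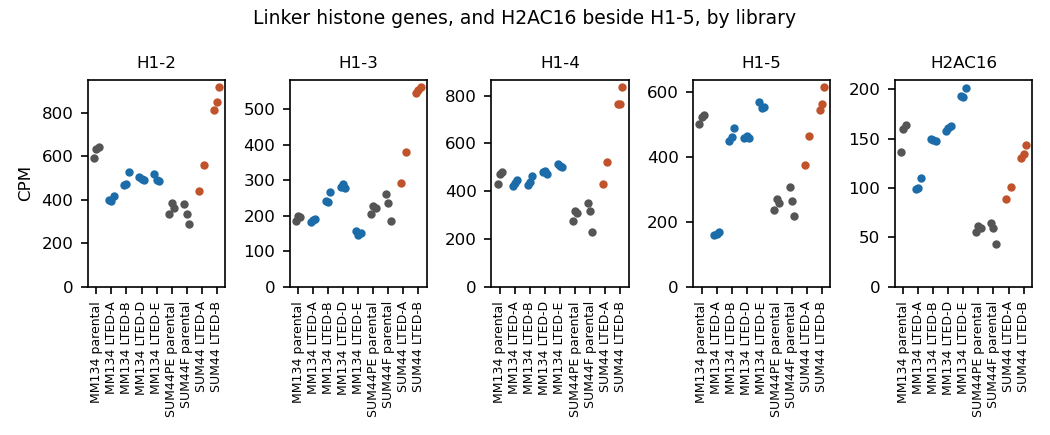
Levels (vertical axes, CPM, each starting at 0) of 4 linker histone genes and of H2AC16, the neighbour of H1-5, in each library of the 9 groups. H1-5 is at 159 to 170 CPM in MM134 LTED-A and at 449 to 570 CPM in the other MM134 groups, while all 4 linker genes are highest in SUM44 LTED-B among the SUM44 groups.

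H4C9 also fell in MM134 LTED-A, from 83.0, 91.2 and 102 CPM to 47.5, 50 and 50 CPM (-0.91 ± 0.06, adjusted p = 1.23e-10). It held 69.1 to 70.3 CPM in LTED-B, 78.0 to 86.9 CPM in LTED-D and 65.5 to 71.7 CPM in LTED-E, and none of those passed both thresholds. H4C9 was the gene that fell in SUM44 LTED-A, SUM44 LTED-B and MM134 LTED-A alike. H2AC11 fell from 332, 380 and 391 CPM to 187, 203 and 208 CPM (-0.89 ± 0.05, adjusted p = 1.07e-11). Against the mean of the other MM134 variants, a contrast chosen after values were seen, LTED-A was lower in 4 of 57 genes and higher in none, against 2.34% lower and 3.9% higher of all genes tested. The 4 were H1-5 (-1.61 ± 0.03), H3C12 (-0.81 ± 0.14, at 0.847 to 3.14 CPM over the MM134 variants), H2AC16 (-0.71 ± 0.04) and H4C9 (-0.60 ± 0.05). Without LTED-A replicate 1 the count was 2. No gene was higher with DESeq2 either, and 54 of 57 had an unadjusted p below 0.05 in edgeR, a share not computed over all genes.

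In the other MM134 variants few histone genes passed both thresholds. In LTED-B none rose and 1 fell, where 8.11% of all genes tested rose and 7.75% fell, and 31 had an unadjusted p below 0.05. In LTED-D, 2 rose and 1 fell, against 9.63% and 7.95%, and in LTED-E, 2 rose and 1 fell, against 8.71% and 10.3%. In edgeR, 35 genes in LTED-D and 41 in LTED-E had an unadjusted p below 0.05, and 40 of 57 had a positive log2 fold change in LTED-E. The share of all genes at such a p was not computed for these variants. The medians were -0.03, -0.06 and 0.15, and for LTED-B the count that rose was also 0 with DESeq2. The 1 gene that fell in each was H4C15, which held 19.5, 18.3 and 16.2 CPM in parental cells and 5.89 to 10.5 CPM in these variants. H4C14, whose canonical transcript has the same letters, held 220 to 353 CPM in these groups, so the fall of H4C15 is uncertain.

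H3C1 rose in 2 variants. It encodes an H3 protein, and all of its 31-base words are its own. Parental MM134 libraries held 13.2, 14.3 and 18 CPM, against 25.5, 24.1 and 24.9 CPM in LTED-D and 26.5, 26.5 and 28.3 CPM in LTED-E, with no overlap. The rises were 0.73 ± 0.08 (adjusted p = 1.41e-07) and 0.85 ± 0.07 (adjusted p = 1.13e-08). H3C12 rose in LTED-D from 1.57, 1.59 and 1.46 CPM to 3.00, 3.14 and 2.9 CPM (0.98 ± 0.17, adjusted p = 9.26e-05). H2AC21 rose in LTED-E from 35.6, 43.8 and 47.7 CPM to 60.5, 65.0 and 66.9 CPM (0.61 ± 0.07, adjusted p = 9.45e-07), and that call was lost without parental replicate 1 (0.50) or LTED-E replicate 3 (0.58).

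The response to LTED differed between the cell lines for the variants at hand. The p-values measure the spread between wells, not between independently derived variants. The interaction sets the average log2 change over MM134 variants against the average over SUM44 variants, so a negative value means more of a rise in SUM44. Of 59 genes tested, 46 were lower and 1 was higher, against 10.2% and 10.8% of all genes tested, with a median of -1.01 against 0.06. The count was 48 without SUM44F replicate 1 and 41 without SUM44F replicate 3. H3C14 and H3C15 each gave -1.54 ± 0.13 (adjusted p = 1.41e-09). H2BC6 gave -2.04 ± 0.42 (adjusted p = 3.24e-04), resting on MM134 levels of 0.111 to 0.514 CPM, and its call was lost without MM134 parental replicate 1 or 3. The 1 gene that was higher was H4C9 (0.62 ± 0.08, adjusted p = 5.28e-07), and that call was lost without MM134 parental replicate 1 or SUM44 LTED-A replicate 1.

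Parental MM134 cells held more of most histone mRNAs than SUM44F, and less of a few. Of 59 genes tested 36 were higher and 7 lower in MM134, against 18.9% and 19.2% of all genes tested, with a median of 0.87. The 36 included 3 of 5 H1, 8 of 14 H2A, 12 of 18 H2B, 6 of 11 H3 and 7 of 11 H4 genes. The number was 39 without SUM44F replicate 1 and 32 without SUM44F replicate 3, and 7 genes were lower in both cases.

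A group of 9 genes set the lines apart most clearly. H2AC25 and H2BC26 form a divergent pair on 1q42, with their starts on either side of the 229 bases printed above. H2AC25 held 25, 26.64 and 26.8 CPM in parental MM134 and 0.0650, 0.0781 and 0.167 CPM in SUM44F (7.76 ± 0.17, adjusted p = 1.84e-20). H2BC26 held 35.1, 38.7 and 48.0 CPM in MM134 and 3.38, 3.55 and 0.957 CPM in SUM44F (4.03 ± 0.32, adjusted p = 2.25e-10). Both stayed at such levels in all variants of each line, H2AC25 at 16.9 to 21 CPM in MM134 LTED and H2BC26 at 33.1 to 42.7 CPM. H4C9, at 83.0 to 102 CPM in MM134 parental cells, exceeded its 9.86 to 10.3 CPM in SUM44F by 3.16 ± 0.06 (adjusted p = 6.03e-21).

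The reverse pattern was found at 6 genes. H2BC3, H2BC6, H2BC18, H3C11, H3C12 and H3C13 held 0 to 3.14 CPM in every MM134 library and 9.77 CPM or more in every SUM44F library. H3C13 had at most 2 counts in any MM134 parental library, below detection, so that SUM44F was at least 173-fold higher, and H3C11 at most 3 counts, at least 151-fold higher in SUM44F (floor of 3 counts per library). H2BC18 was lower in MM134 by 7.41 ± 0.20 on the log2 scale (adjusted p = 6.53e-19) and H2BC6 by 7.40 ± 0.20 (adjusted p = 1.20e-18). H3C12 (-4.06) and H2BC3 (-4.84) followed, both DE. Reads of H2BC18 and H3C13 are shared widely, with 13.6% and 19.6% of their 31-base words found in no other gene, while H3C11, H3C12 and H2BC3 have over 90%. H3C1, the last of the 7, held 13.2 to 18 CPM in MM134 and 33.3 to 51.7 CPM in SUM44F (-1.52 ± 0.12, adjusted p = 1.20e-10).

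**Figure D4:**
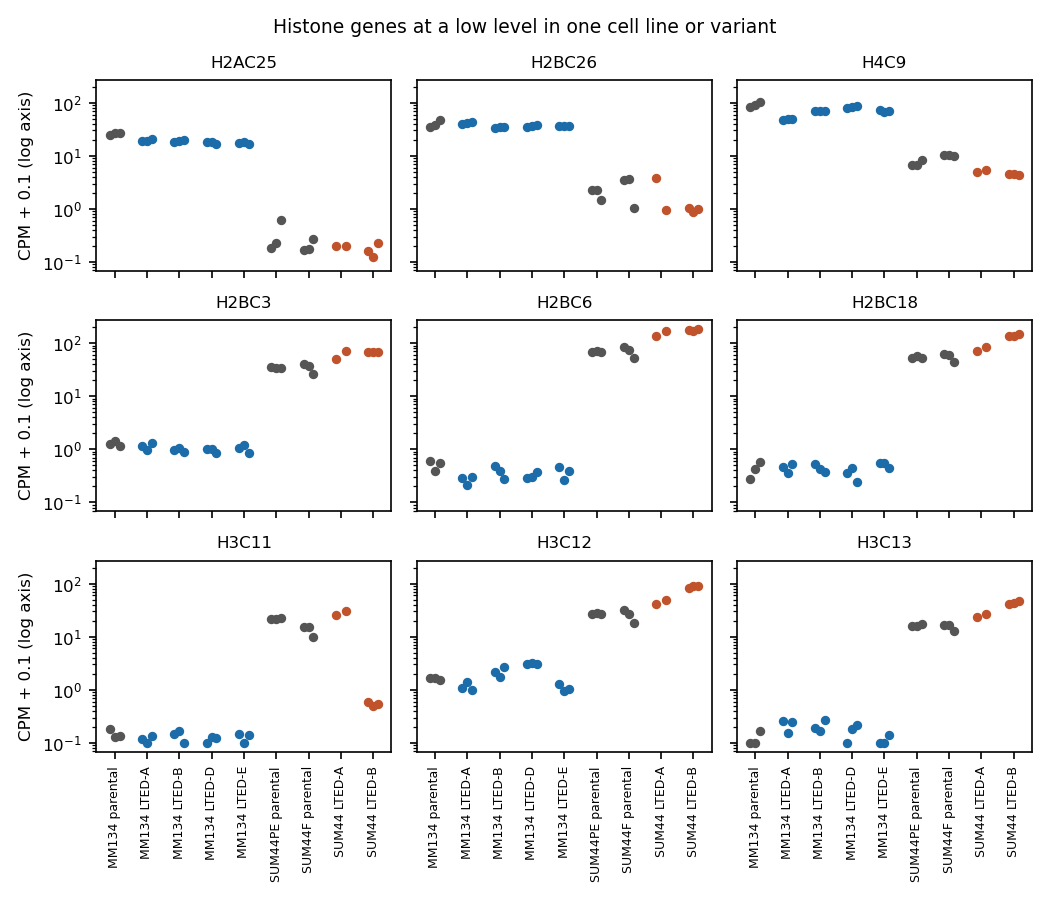
Level of 9 histone genes (vertical axes, CPM plus 0.1, log axis) in each library of the 9 groups. The top row is higher in MM134 libraries, the other 6 genes are higher in SUM44 libraries, and H3C11 drops to 0.395 to 0.482 CPM in SUM44 LTED-B alone among the SUM44 groups.

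SUM44PE and SUM44F did not differ in any histone gene by the thresholds used. None of 58 genes rose or fell in SUM44PE, against 2.85% and 2.72% of all genes tested, and the median was 0.10. With edgeR, 7 genes had an unadjusted p below 0.05 (share over all genes not computed), and 1 was called up by DESeq2. The median was 0.24, with 24 genes at an unadjusted p below 0.05, without SUM44F replicate 1, and -0.022, with 12 genes, without SUM44F replicate 3, and no gene was called in either case. H3C11 had the largest positive value, 0.73 ± 0.14 (adjusted p = 0.00249), and H4C9 one of -0.52 ± 0.10 (adjusted p = 0.00231), neither past both thresholds.

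Other genes of the histone and replication machinery were set beside these results, in lists chosen with earlier results of these data known. S phase genes, such as the MCM helicase subunits and cyclins, stood at a median of 0.92 (log2) in SUM44 LTED-A, where 15 of 20 rose. In SUM44 LTED-B the median was 0.97, where 17 of 20 rose and none fell. Of all genes tested, 6.39% rose in SUM44 LTED-A and 8.69% in SUM44 LTED-B. MCM5 rose by 1.66 and 0.83, and TYMS, the thymidylate synthase, by 1.45 and 1.20. CCNE1, cyclin E1, rose by 1.11 in SUM44 LTED-B but stood at -0.44 in SUM44 LTED-A, not past both thresholds. In MM134 LTED-A the list's median was -0.38, with 1 gene up (CCNE1, by 0.79) and 1 down (TYMS, by -0.67), against 10.5% and 9.82% of all genes. CCNE1 also rose in MM134 LTED-D (1.13) and LTED-E (1.06), but did not pass both thresholds in LTED-B (0.22). In MM134 LTED-B the S phase median was -0.27 beside -0.03 for histone genes, in LTED-D -0.17 beside -0.06 and in LTED-E 0.04 beside 0.15. In SUM44PE, where no histone gene was called, it was 0.35 with 4 of 20 genes up, against 2.85% of all genes tested. MCM5 (1.43) and TYMS (0.70) were among the 4. The part of S phase in the histone results was not tested. Of the histone chaperones, 7 of 15 rose in SUM44 LTED-A and 5 in LTED-B, among them CHAF1B of the replication-coupled assembly factor CAF-1 (0.94 and 1.05), SSRP1 of the FACT complex (0.76 and 0.94) and HJURP, the chaperone of the centromeric H3 variant (1.23 and 1.03). HJURP fell by 0.91 in MM134 LTED-A.

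The list of histone mRNA processing genes had median log2 fold changes of 0.0063 to 0.27 over the LTED comparisons. Single genes of the list rose further. SLBP was in no LTED comparison past both thresholds, with values of 0.10 to 0.45, and NPAT ran from -0.19 to 0.35. LSM10, a subunit of the U7 particle, rose in all 4 MM134 variants by 0.68 to 0.96, from 6.09 to 7.63 CPM in parental cells to 10.1 to 13.6 CPM. ZNF473, another factor of that reaction, rose in SUM44 LTED-B (1.13) and CASP8AP2, of the histone locus body, in SUM44 LTED-A (0.89).

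The list of replication-independent histone variants, which includes H2AX with its stem-loop match, had negative medians in all 4 MM134 variants. They were -0.60 in LTED-A, -0.38 in LTED-B and -0.32 in LTED-D and LTED-E. The list was not tested against the replication-dependent genes. H3-3A, which encodes the replacement histone H3.3, fell in all 4 MM134 variants, by -1.14 in LTED-A, -0.61 in LTED-B, -0.68 in LTED-D and -0.82 in LTED-E. MACROH2A2, of the macroH2A family linked to silent chromatin, fell from 37.0 to 39.7 CPM in parental cells to 1.58 to 11.6 CPM in the variants, by -1.78 to -4.25. H1-10, a replacement linker histone, fell in LTED-A (-0.71) and LTED-D (-0.63) and rose in SUM44 LTED-B (0.72). Of 11 genes in the list, 6 fell in LTED-A, 2 in LTED-B and 3 each in LTED-D and LTED-E. Of all genes tested, 9.82%, 7.75%, 7.95% and 10.3% fell in these variants, in that order. In SUM44 LTED-A 3 genes of the list rose and in SUM44 LTED-B 5, against 6.39% and 8.69% of all genes tested. In LTED-B of MM134 1 rose, against 8.11% of all genes tested.

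Other RNAs without a poly(A) tail were set beside the histone genes as a measure of library make-up. RN7SL1, RN7SL2, RPPH1, RMRP and TERC together held 49672 to 60062 CPM in MM134 parental libraries and 68600 to 107297 CPM in MM134 LTED libraries. They held 46841 to 71464 CPM in SUM44F, 72217 to 94236 CPM in SUM44 LTED-A, 64951 to 74517 CPM in SUM44 LTED-B and 94921 to 112546 CPM in SUM44PE. None of the 5 was called in either SUM44 LTED variant by edgeR, while 2 or 3 rose in each MM134 variant (RN7SL2 in all 4, by 0.59 to 0.89, RN7SL1 in 3 and TERC in 2). Of all genes tested, 8.11% to 10.5% rose in the MM134 variants. In SUM44 LTED-A the sum of the 5 RNAs lay above SUM44F in every library, with a median log2 fold change of 0.42. In SUM44PE that sum was the highest of the SUM44 groups. DESeq2 gave 2 calls over both SUM44 variants. The part of library make-up in the histone results was not tested.

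**Figure D5:**
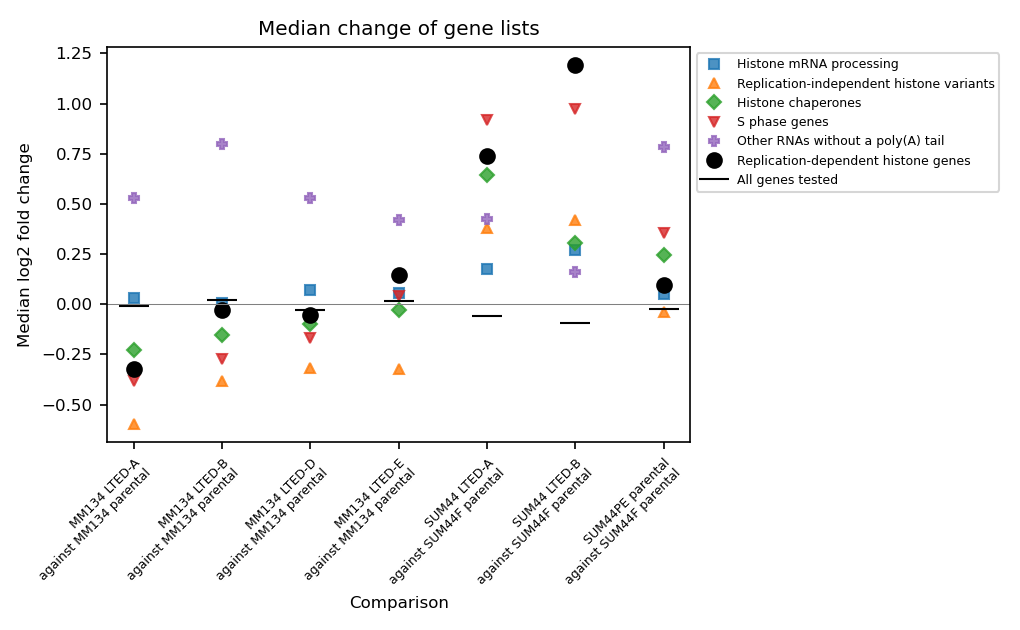
Median log2 fold change (vertical axis) of the replication-dependent histone genes (black circles) and 5 other lists in 7 comparisons (horizontal axis), with dashes for all genes tested. Histone genes reach 0.74 and 1.19 in the SUM44 LTED variants and -0.32 in MM134 LTED-A, and S phase genes 0.92, 0.97 and -0.38.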

How the data were processed

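RNA was sequenced in 27 libraries of MM134 and SUM44 cells, 3 wells in each of 9 groups. The authors used a stranded total RNA kit and an Illumina HiSeq and, per the labels, quantified genes with Salmon 0.6.0 on hg38 (Ensembl release 82). The deposited values are estimated counts per gene, not normalized and not whole; they were rounded here. Trimming, the strand setting and how shared reads were divided are not given in the sources used here. Depth was the sum of counts per library, and precision is that of counts and wells.

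Groups followed the sample titles. Counts were filtered with filterByExpr, TMM-scaled and compared in edgeR 4.0.16 (quasi-likelihood test, two-sided, Benjamini-Hochberg over all genes tested) in R 4.3.3, in 1 fit for MM134, 1 for SUM44F and its variants, 1 that added SUM44PE and 1 of both lines. Standard errors are the absolute log2 fold change over the square root of F. DE means a fold change above 1.5 and adjusted p below 0.001, the study's thresholds. Symbols, lengths and positions came from GENCODE v44 by Ensembl ID. Levels use 1 TMM scaling over all groups, and CPM per kb uses the canonical transcript. SUM44 LTED-A replicates 2 and 3 were averaged. Fits were tested on simulated data. Sequence was read from hg38 and the RefSeq promoter table.

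Named in full were the 2 genes of each family highest per kb of canonical transcript. Per comparison, the 3 largest rises and falls among DE genes with a group mean of at least 1 CPM were added. For each other list, the 3 genes called most often across the LTED comparisons were chosen, and SLBP and NPAT always. Others, such as H2AC6, H3C6 and the neighbours of H3C11 and H1-5, were named after their values were seen. Members and lists were chosen with earlier results of these data known. Alternatives were DESeq2 1.42.0, RLE scaling, no filter, a fold change above 2, an adjusted p below 0.05, a replicate block, both replicates kept, identical copies summed (added after seeing the data) and each library left out.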

Additional observations from a re-analysis of the deposited data

Results flagged for a closer look

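Several results differed between groups under the same kind of contrast, each by a direct test of the difference in edgeR with wells as replicates. In the interaction of cell line and LTED, 46 of 59 histone genes were lower and 1 was higher, against 10.2% and 10.8% of all genes tested. Log2 differences were -2.04 for H2BC6, -1.54 for H3C14, -1.54 for H3C15 and 0.62 for H4C9.

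Between the SUM44 variants, LTED-B against LTED-A, 4 of 58 genes were higher and 1 was lower, against 3.86% and 3.56% of all genes tested. The count of 4 ran from 0 to 12 with 1 library left out. Log2 differences were 1.08 for H2BC21, 1.03 for H2AC20, 1.02 for H4C16 and -5.98 for H3C11.

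MM134 LTED-A against the other MM134 variants had 4 of 57 genes lower, against 2.34% of all genes tested. Log2 differences were -1.61 for H1-5, -0.81 for H3C12 and -0.71 for H2AC16. Groups of 3 wells are too small for a test of single outlying libraries.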

How the results depend on the processing

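SUM44 LTED-A has n = 2, the fewest of any group. Genes under 1 CPM and copies with identical transcripts are the least certain. The causes of the changes below were not tested.

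With a fold change above 2, counts of histone genes became 2 lower in MM134 LTED-A, 0 lower in LTED-B, 0 higher in LTED-D and in LTED-E, 5 higher and 0 lower in SUM44 LTED-A, 30 lower and 0 higher in the interaction, 19 higher in MM134 parental against SUM44F, and 1 lower in MM134 LTED-A against the other variants. With an adjusted p below 0.05 they became 1 higher in MM134 LTED-B, 2 lower in LTED-E, 40 higher in SUM44 LTED-A, 1 higher in SUM44PE and 18 higher in SUM44 LTED-B against LTED-A. With no filter SUM44 LTED-A gave 40, SUM44PE 1 and LTED-B against LTED-A 18. DESeq2 gave 42, 1 and 18, with 2 lower in MM134 LTED-E and 0 higher in the interaction. RLE factors gave 2 lower in MM134 LTED-E, 0 higher in the interaction and 2 higher in LTED-B against LTED-A. With replicates 2 and 3 of SUM44 LTED-A apart the counts were 30 in LTED-A and 8 in LTED-B against LTED-A. With identical copies summed, MM134 LTED-B, LTED-D and LTED-E each had 0 lower, but that sum follows the far higher H4C14 by construction and says nothing of H4C15.

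In the SUM44 variants, calls up among histone mRNA processing genes went from 2 to 4 with no filter, 4 with DESeq2 and 5 with RLE. Calls down among histone variants went from 0 to 1 with no filter, DESeq2 or separate replicates, and calls up among other RNAs without a poly(A) tail from 0 to 2 with no filter or DESeq2.

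Summed levels without the 5 polyadenylated members were 8637 CPM in MM134 parental cells, 6519 in LTED-A, 8365 in LTED-B, 8337 in LTED-D, 9351 in LTED-E, 5203 in SUM44PE, 7990 in SUM44 LTED-A and 11581 in LTED-B. With all 66 genes kept, the unscaled sums were 9576 in MM134 LTED-B, 9394 in LTED-D and 13078 in SUM44 LTED-B. Unscaled sums of the parental cells were 11227 in MM134 and 6180 in SUM44F. The sum of all 66 in MM134 LTED-B was 9792 under RLE.

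Replicate numbers name wells and did not pair the samples (correlations of same-numbered deviations -0.40 to 0.30 in MM134 and -0.18 to 0.23 in SUM44). The fit with the replicate block gave 5 rises in SUM44 LTED-A and 2 in LTED-B against LTED-A.

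Leaving out 1 library gave 9 to 16 falls in MM134 LTED-A, 0 to 1 rises in LTED-B, 1 to 2 falls in LTED-D, 1 to 2 rises and 1 to 2 falls in LTED-E, 0 to 24 rises in SUM44 LTED-A, 0 to 1 higher in the interaction, 0 to 12 higher in LTED-B against LTED-A and 2 to 4 lower in MM134 LTED-A against the other variants. Calls among processing genes in SUM44 ran from 2 to 4, falls among variants from 0 to 1, and calls up among other RNAs without a poly(A) tail from 7 to 14 in MM134 and 0 to 1 in SUM44.

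Fold changes near 0 changed sign. H2BC4 in MM134 LTED-B was -0.0029 with no filter, -4.17e-05 with DESeq2 and -6.71e-05 with RLE. Leaving out 1 library gave, for genes that turned, ranges of -0.052 to 0.049 (H2BC4), -0.099 to 0.045 (H2BC5), -0.053 to 0.11 (H3C7) and -0.16 to 0.053 (H4C14) in LTED-B, -0.13 to 0.030 (H2AC17), -0.056 to 0.10 (H3C7), -0.14 to 0.043 (H3C8) and -0.17 to 0.029 (H4C11) in LTED-D, and -0.065 to 0.099 (H2AC17) and -0.068 to 0.092 (H3C7) in LTED-E.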
